A study of Homo sapiens with 12 samples.

Results

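The genes described here are 10 genes studied in relation to neuroendocrine cells, out of the 63568 genes in the deposited expression table. They are DDC, CHGA, CHGB, ENO2, SYP, NTS, SCG3, SCG5, VGF and REST. Of these, 9 were chosen for their known role as neuroendocrine markers or, for REST, as the repressor of neuronal genes. DDC was chosen by its TPM in these libraries, which was low early after BRG1 depletion, so its difference from control cells is given as a description and not as a test. RNA-seq was carried out on LNCaP cells, an androgen-responsive line from a lymph node metastasis of prostate cancer, in 12 libraries. Cells received the non-targeting control siRNA pool (si-NT) or 1 of 2 siRNAs against SMARCA4, the gene for the SWI/SNF ATPase BRG1, and were collected at 72 h, or at 144 h after a split and a further transfection. At each time point there were 2 si-NT libraries and 4 BRG1 depleted libraries, 2 for each siRNA, which the table numbers 2 and 3. LNCaP is a single line, and nothing states that the replicates came from separate cultures, so p-values measure the spread between these libraries, which may be technical.

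Neuroendocrine cells store peptides and amines in dense-core secretory granules and release them on a calcium signal. The granins CHGA, CHGB, SCG3, SCG5 and VGF are cargo or helpers of these granules, NTS is a secreted peptide, SYP is a membrane protein of small vesicles, and ENO2 is the enolase isoform of neurons. In many non-neuronal cells the zinc finger protein REST binds a motif called RE1 near such genes and recruits corepressors that keep them off. DDC encodes aromatic L-amino acid decarboxylase, which makes dopamine and serotonin from their amino acid precursors. In prostate cancer DDC is used as a neuroendocrine marker but is also made by luminal tumour cells and binds the androgen receptor.

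The letters of the RE1 motif were searched in GRCh37 as CAGCACC, 2 free bases and GGACAG, on both strands, from 10 kb before to 10 kb after each gene. Sites are shown because they mark which of the 10 genes carry these letters, with this spacing, in their DNA. With all 13 fixed letters matched, a site was found at 3 of the 10 genes, CHGA, CHGB and SYP, and at 3.24% of 20163 protein-coding genes. With at most 1 letter different, a site was found at 6 of the 10, against 24.2% of protein-coding genes. The 3 full matches lay in an annotated intron, 375 bases inside CHGA, 196 bases inside CHGB and 78 bases inside SYP. In VGF a site with 1 different letter lay across the gene start, at -6 bases, and in DDC such a site lay 12220 bases inside the gene, in an intron. REST, ENO2, NTS and SCG3 had none with this spacing, though the promoter of SCG3 held both blocks on its own strand, CAGCACC at 10 and GGACAG at 25 bases after the start (GRCh38.p14). Fixed and free motif positions are in capitals below, flanking bases in lower case, 5′ to 3′ on the strand of the site.
CHGA, chr14:93389870-93389884, forward strand: ttCAGCACCGCGGACAGcgcctc
CHGB, chr20:5892352-5892366, forward strand: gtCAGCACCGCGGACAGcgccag
SYP, chrX:49056585-49056599, reverse strand: tcCAGCACCGTGGACAGagcccg
VGF, chr7:100808842-100808856, forward strand: ttCAGCACGCTGGACAGcgcccg
DDC, chr7:50620868-50620882, reverse strand: ggCAGTACCATGGACAGatccac
A match of letters does not show that REST was bound there in these cells.

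DDC (ENSG00000132437.13) spans chr7:50526134-50633102 in GRCh37, read on the reverse strand. RefSeq gives it 2 starts, and the table holds 1 value for the whole gene, so which start was in use cannot be told apart. Both promoters are shown, from 250 bases before to 50 bases after the start in GRCh38.p14, because DDC is the gene of the 10 with the widest range of levels.
DDC, upstream start, chr7:50565356-50565655, reverse strand: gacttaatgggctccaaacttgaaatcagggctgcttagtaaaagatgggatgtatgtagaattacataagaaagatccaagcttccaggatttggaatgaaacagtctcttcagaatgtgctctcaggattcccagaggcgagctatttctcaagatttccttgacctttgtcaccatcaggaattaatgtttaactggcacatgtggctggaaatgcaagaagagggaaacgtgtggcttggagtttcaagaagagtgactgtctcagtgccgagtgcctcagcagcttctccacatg
DDC, downstream start, chr7:50561022-50561321, reverse strand: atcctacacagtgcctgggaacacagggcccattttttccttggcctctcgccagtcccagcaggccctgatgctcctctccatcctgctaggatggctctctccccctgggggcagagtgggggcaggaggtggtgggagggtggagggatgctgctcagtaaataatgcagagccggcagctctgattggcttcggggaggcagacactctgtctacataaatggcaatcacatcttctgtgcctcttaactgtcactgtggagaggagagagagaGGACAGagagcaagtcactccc
The capitals in the second sequence are the second block of the RE1 motif, GGACAG, which 20.5% of 35116 promoters of this length held on either strand. Neither sequence held its first block CAGCACC, the single block TGTTCT of the androgen receptor motif or the forkhead motif TGTTTAC. Of all promoters, 7.75%, 14.8% and 3.42% held these. The upstream promoter was 44.3% G or C and the downstream one 57.3%, against a median of 58.7%. Of the 10 genes, 9 were matched to this RefSeq table. Among them the cyclic AMP response element TGACGTCA was found in the promoters of CHGA and VGF, at -54 and -79 bases from the start, and in 1.85% of all promoters.

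Values are TPM, a measure per gene length that can be compared between genes, scaled so that all libraries have the same total. TPM keeps no read depth, so counting error is unknown and precision was judged from replicates. The number of genes at 1 TPM or more was 14706 to 15355 per library, and spike-in RNA (ERCC) took 0.805% to 1.97% of TPM. In replicates 1 and 2 of si-NT at 144 h it took 0.805% and 1.34%, so values scaled to ERCC carry a spread between replicates. SMARCA4 itself was at 73.44 to 106.59 TPM in si-NT and at 11.42 to 21.7 TPM in BRG1 depleted libraries. The 7 luminal prostate markers, KLK3 and FOLH1 among them, were between 69.69 and 841.47 TPM in every library. Of 9 matched markers of basal, stromal, immune and endothelial cells, 8 stayed under 1 TPM, and COL1A1 reached 9.11 TPM. The summed level of these 9 markers was 8.38 to 9.52 TPM in si-NT and 3.77 to 10.32 TPM in depleted libraries at 72 h, and 7.45 to 7.52 and 4.15 to 7.21 TPM at 144 h. The part of this difference at 144 h in the results was not tested.

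The levels of the 10 genes fell into separate ranges. DDC lay between 11.77 and 165.39 TPM, REST between 9.33 and 14.65, and ENO2 between 5.36 and 22.60. SYP followed at 0.39 to 1.36 TPM, VGF at 0.45 to 1.05 and SCG5 at 0.24 to 0.82, and these ranges overlapped. CHGA, CHGB, SCG3 and NTS were at or under 0.08 TPM everywhere and were listed at 0 in 32 of 48 values. DDC was thus the only one of the 10 above 25 TPM, and in depleted libraries its range of 11.77 to 23.9 TPM overlapped those of REST and ENO2. DDC, ENO2, SYP and REST passed the filter for testing, at least 1 TPM in at least 2 libraries.

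**Figure D1:**
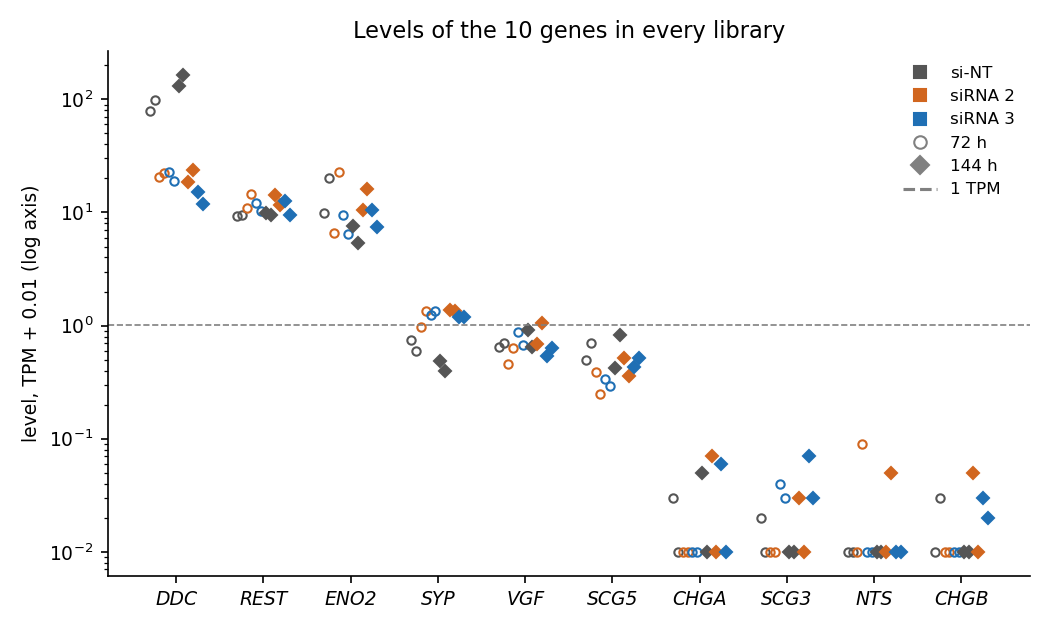
Level of each of the 10 genes in each of the 12 libraries, as TPM plus 0.01 on a log axis, ordered by mean level; open circles are 72 h, filled diamonds 144 h, colours the siRNAs, and the dashed line 1 TPM. DDC, REST and ENO2 lie above 5 TPM in every library, SYP, VGF and SCG5 near 1 TPM, and the other 4 genes at or under 0.08 TPM.

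DDC was lower in BRG1 depleted cells at both time points. At 72 h it was at 78.90 and 99.31 TPM in si-NT, at 20.56 and 22.40 TPM with siRNA 2, and at 22.62 and 19.12 TPM with siRNA 3. At 144 h it was at 130.50 and 165.39 TPM in si-NT, at 18.67 and 23.90 TPM with siRNA 2, and at 15.18 and 11.77 TPM with siRNA 3. Every depleted library was below every si-NT library, and the lowest si-NT value was above 3 times the highest depleted one. The ratio of group means, si-NT over depleted, was 4.21 at 72 h and 8.51 at 144 h. On the log2(TPM + 1) scale the difference was -2.02 (standard error 0.22) at 72 h and -3.05 (standard error 0.22) at 144 h. These values chose DDC, so nothing is read from them beyond their size. For scale, 0.557% of the 16337 genes tested were called lower at 72 h and 10.8% at 144 h at an adjusted p under 0.05, and in 6.93% and 22.5% every depleted library was below both si-NT libraries.

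**Figure D2:**
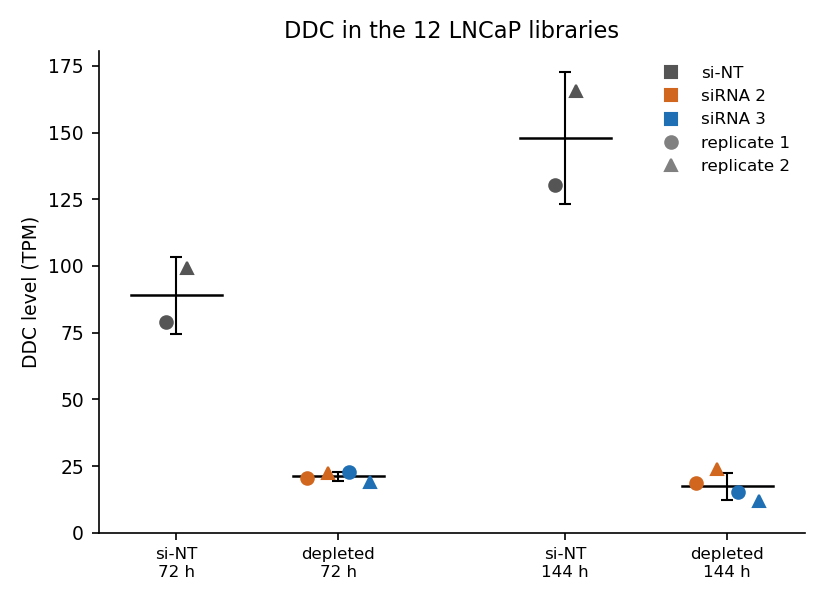
DDC level in TPM in each library, by group and time point; colours give the siRNA, shapes the replicate number, and black bars the group mean ± SD (n = 2 for si-NT, n = 4 for depleted). The 8 depleted libraries lie between 11.77 and 23.9 TPM and the 4 si-NT libraries between 78.9 and 165.39 TPM.

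Within each group the level of DDC at the time points was also compared. In depleted cells DDC averaged 21.2 ± 1.65 TPM (SD, n = 4) at 72 h and 17.4 ± 5.18 TPM (SD, n = 4) at 144 h. In si-NT cells it was 0.72 higher on the log2 scale at 144 h than at 72 h (95% interval 0.18 to 1.27, limma adjusted p = 0.974), so this difference did not pass the test over all genes. No gene of the 16337 did (0% called). At 72 h the DDC levels of the siRNAs did not differ beyond their spread, with siRNA 3 minus siRNA 2 at -0.04 (95% interval -0.46 to 0.37, limma adjusted p = 0.977). At 144 h siRNA 3 was lower by a log2 difference of -0.62 (95% interval -1.04 to -0.21), which did not pass the adjustment over all genes (limma adjusted p = 0.217). Its 2 values, 15.18 and 11.77 TPM, were both below the 18.67 and 23.90 TPM of siRNA 2. Between the siRNAs, 0.141% of genes were called at 72 h and 0.331% at 144 h.

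The antisense gene DDC-AS1, which lies within DDC on the opposite strand, was at 0 to 0.05 TPM and was looked up after the values were seen. Of 5 genes around DDC, IKZF1 and ZPBP were listed at 0 in every library and 3 were tested. At 144 h 1 was called lower and 1 higher, where 10.8% of all genes were called lower and 13.6% higher. With 3 genes tested, nothing is read from these counts. FIGNL1, an ATPase of DNA repair whose start is 115 kb downstream of that of DDC, was called lower at 144 h. It was at 34.69 and 40.64 TPM in si-NT and at 14.25 to 21.07 TPM in depleted libraries, a log2 fold change of -1.02 (standard error 0.14, limma adjusted p = 0.000829). At 72 h its log2 fold change was -0.19 (limma adjusted p = 0.61), with 24.20 and 29.51 TPM in si-NT and 22.08 to 25.55 TPM in depleted libraries. COBL, an actin nucleator 751 kb upstream, rose at 144 h with a log2 fold change of 0.47 (limma adjusted p = 0.0279). That call was lost when either si-NT library of 144 h or either siRNA 2 library of 144 h was left out. GRB10, the nearest upstream gene tested and an adaptor of the insulin receptor, was at 0.43 and 0.17 (limma adjusted p = 0.584 and 0.736).

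SYP rose at 144 h, from a low level. At 72 h synaptophysin RNA was at 0.73 and 0.59 TPM in si-NT, at 0.96 and 1.33 TPM with siRNA 2, and at 1.22 and 1.34 TPM with siRNA 3. At 144 h it was at 0.48 and 0.39 TPM in si-NT, at 1.36 and 1.34 TPM with siRNA 2, and at 1.19 and 1.18 TPM with siRNA 3. All 4 depleted libraries were above both si-NT libraries at each time point, which held for 16.3% of genes tested at 72 h and 26.1% at 144 h. On the log2(TPM + 1) scale the change was 0.41 (standard error 0.14, limma adjusted p = 0.197) at 72 h and 0.66 at 144 h (standard error 0.14, limma adjusted p = 0.00753). On the TPM scale the depleted mean was 2.91 times the si-NT mean at 144 h. SYP reached 1 TPM in depleted libraries alone, so it passed the filter through the group where it was high. With a filter on the mean over all libraries, at least 0.5 TPM, chosen after the data were seen, the adjusted p at 144 h was 0.00556. That mean counts the depleted libraries too, and the si-NT mean at 144 h was 0.435 TPM, so this filter is not independent either. In a fit of all 33048 genes above 0, the limma adjusted p of SYP at 144 h was 0.00592. Without replicate 2 of si-NT at 144 h the log2 fold change was 0.61 and the adjusted p 0.0865, and with scaling to the ERCC spike-ins they were 0.48 and 0.284. The SYP antisense gene, SYP-AS1, was at 0.06 TPM or less.

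REST, which encodes the repressor, did not pass the test at either time point. At 72 h it was at 9.33 and 9.52 TPM in si-NT and at 10.96, 14.65, 12.02 and 10.39 TPM in depleted libraries. At 144 h it was at 9.87 and 9.47 TPM in si-NT and at 14.35, 11.53, 12.53 and 9.54 TPM in depleted libraries. The depleted libraries were all above si-NT at 72 h, as in 16.3% of genes tested, and at 144 h the lowest of them lay between the si-NT values. Its log2 fold change was 0.31 at 72 h (95% interval -0.04 to 0.65, limma adjusted p = 0.41) and 0.27 at 144 h (95% interval -0.07 to 0.61, limma adjusted p = 0.24). With ERCC scaling the value at 144 h was -0.10. NOA1, at 19.65 to 29.36 TPM, overlaps 3459 bases of REST on the opposite strand. The libraries were stranded, but whether the counting used strand is not given in the sources used here, so some REST reads may belong to NOA1.

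ENO2, the neuronal enolase, varied widely between replicates. At 72 h it was at 9.81 and 20.27 TPM in si-NT, at 6.59 and 22.60 TPM with siRNA 2, and at 9.55 and 6.38 TPM with siRNA 3. At 144 h it was at 7.53 and 5.36 TPM in si-NT, at 10.49 and 16.00 TPM with siRNA 2, and at 10.42 and 7.44 TPM with siRNA 3. The groups overlapped at both time points. This gave a log2 fold change of -0.48 at 72 h (standard error 0.44, limma adjusted p = 0.687) and of 0.67 at 144 h (standard error 0.44, limma adjusted p = 0.304). The direction at 72 h rested on replicate 2 of si-NT, without which it was 0.0076. LRRC23, at 8.14 to 13.18 TPM, overlaps ENO2 by 497 bases on the same strand. Of the other enolases, ENO1, the form of most tissues, fell at 144 h from 1950 and 2090 TPM in si-NT to between 1256 and 1474 TPM (log2 fold change -0.54, limma adjusted p = 0.0117). This call was lost without either si-NT library of 144 h. ENO3, the muscle form, was not called, at -0.35 and -0.26.

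Over SYP, REST and ENO2 together, 0 were called at 72 h and 1 at 144 h by limma at an adjusted p under 0.05, and at an unadjusted p under 0.05 the count was 1 at both. The 1 called was SYP, which passed the filter through the group where it was high, so this count is not an independent one. Of all genes tested, 1.68% were called at 72 h (1.13% higher) and 24.4% at 144 h (13.6% higher). None of the 3 was called by limma for a change that differed between the time points, for si-NT at 144 h against 72 h, or between the siRNAs at either time, with 0 also at an unadjusted p under 0.05. The change differed between the time points for 0.0184% of all genes.

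**Figure D3:**
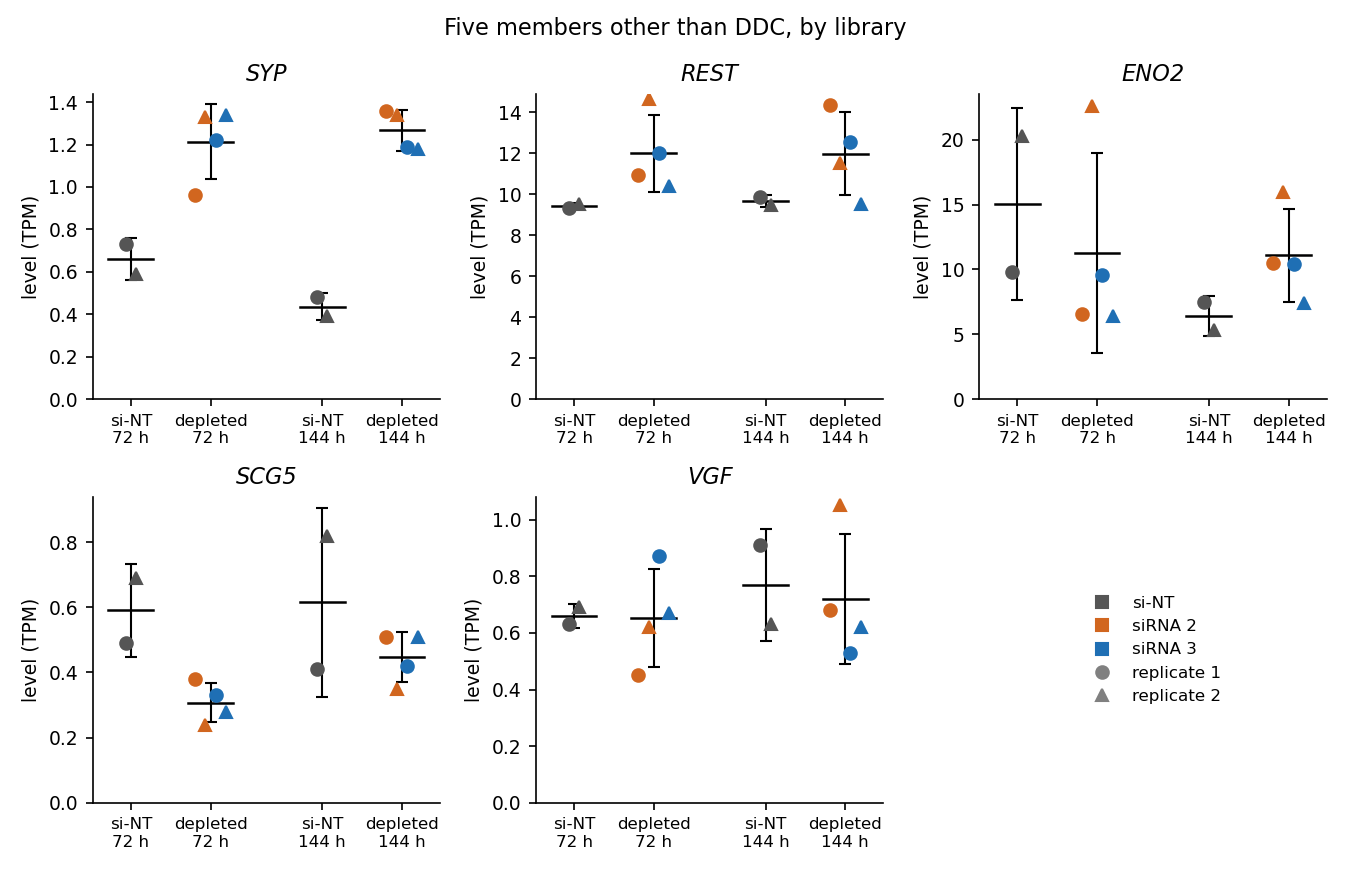
TPM of SYP, REST, ENO2, SCG5 and VGF in each library, by group and time point, with each axis starting at 0; colours give the siRNA, shapes the replicate number, and black bars the group mean ± SD (n = 2 for si-NT, n = 4 for depleted). SYP is the gene whose groups are apart at both time points, and ENO2 ranges from 6.38 to 22.60 TPM within the depleted group at 72 h.

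The granins and NTS were too low to test. VGF, which is processed to secreted peptides, was at 0.63, 0.69, 0.91 and 0.63 TPM in si-NT and at 0.45 to 1.05 TPM in depleted libraries. SCG5, the chaperone 7B2 of a prohormone convertase, was at 0.49 and 0.69 TPM in si-NT at 72 h and at 0.38, 0.24, 0.33 and 0.28 TPM in depleted libraries. At 144 h it was at 0.41 and 0.82 TPM in si-NT and at 0.51, 0.35, 0.42 and 0.51 TPM in depleted libraries. The SCG5 groups were thus apart at 72 h, as in 6.93% of the genes tested, and overlapped at 144 h. In a fit of all 33048 genes above 0, SCG5 was at -0.28 at 72 h (limma adjusted p = 0.346) and at -0.15 at 144 h (limma adjusted p = 0.485). A readthrough gene, ARHGAP11A-SCG5, covers nearly all of SCG5 in the annotation used here, but has no values of its own in the deposited table. Reads from it, if any, cannot be told apart from those of SCG5, so SCG5 values are uncertain.

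CHGA and CHGB, the chromogranins that hold the full RE1 motif shown above as SYP does, were at 0.06 TPM or less and 0.04 TPM or less. SCG3, which sorts chromogranin A to granules, was at 0.06 TPM or less. Neurotensin (NTS) was listed at 0 in 10 of 12 libraries and at 0.08 and 0.04 TPM in the other two. The summed level of these 4 genes reached 0.04 TPM in si-NT and 0.13 TPM in depleted libraries. In depleted libraries at 144 h it was 0.03 to 0.13 TPM, and in si-NT at that time 0 to 0.04 TPM. Of 15 neuroendocrine transcription factors and further markers, 2 passed the filter and 0 were called (limma; 0 also at an unadjusted p under 0.05). These were DLL3, a Notch ligand at 3.22 to 5.08 TPM, and ONECUT2 at 1.71 to 2.80 TPM. Of all genes tested, 1.68% were called at 72 h and 24.4% at 144 h, so 0 of 2 says little of these genes. NEUROD1 and POU3F2 were at 0.12 TPM or less, and INSM1, FOXA2 and SOX2 were listed at 0 in every library. UCHL1, not tested, was at 0.25 to 0.39 TPM in si-NT and at 0 to 0.57 TPM in depleted libraries at 72 h. At 144 h it was at 0.29 and 0.42 TPM in si-NT and at 0.25 to 1.54 TPM in depleted libraries. Its groups overlapped at both time points. NCAM1, also not tested, was at 0.10 and 0.19 TPM in si-NT and at 0 to 0.02 TPM in depleted libraries at 72 h. Depleted libraries were likewise all lower in 6.93% of the genes tested at 72 h. At 144 h the NCAM1 groups overlapped, at 0.03 to 0.07 TPM in si-NT and 0 to 0.07 TPM in depleted libraries.

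Of the secretory machinery genes that LNCaP cells did express, several rose at 144 h. Of 12 genes for granule cargo and processing, 5 were tested, and 3 rose at 144 h with 0 falling, where 13.6% of all genes were called higher and 10.8% lower. Their median log2 fold change was 0.39 at 72 h and 0.71 at 144 h, against 0.06 and 0.03 over all genes. The gene lists of this report, this one and those below included, were chosen with earlier results of these data known. Their counts and medians beside those of all genes are therefore a description and not a test. CPE, the carboxypeptidase that trims prohormones, rose at both times, from 22.44 and 25.22 TPM to between 33.20 and 44.56 TPM at 72 h (0.60, limma adjusted p = 0.0335) and from 28.26 and 28.91 TPM to between 43.80 and 49.85 TPM at 144 h (0.71, limma adjusted p = 0.00195). PAM, which amidates peptides, rose from 13.70 and 14.52 TPM to between 22.46 and 33.57 TPM at 144 h (0.95, limma adjusted p = 0.00144). SYT7, a calcium sensor of exocytosis, rose from 20.14 and 24.46 TPM to between 51.42 and 78.20 TPM (1.43, limma adjusted p = 0.00292). PTPRN2 and CADPS2 were not called. PCSK1, a prohormone convertase, was listed at 0 in every library. The 72 h call of CPE was lost with a replicate block (0 genes of the list called), when only the 6 libraries of 72 h were fitted, and in 7 of 12 fits that left out 1 library, each of the 4 si-NT libraries, both siRNA 3 libraries of 72 h and siRNA 3 replicate 1 of 144 h.

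Of 12 genes for vesicles and exocytosis, 6 were tested, 0 were called at 72 h by limma (2 at an unadjusted p under 0.05) and 4 rose at 144 h, with medians of 0.25 and 0.56. Of all genes, 1.13% were called higher at 72 h and 13.6% at 144 h. Without either si-NT library of 144 h, 3 genes of the list in place of 4 were called at 144 h. CPLX1, a complexin that clamps SNARE complexes, rose from 2.03 and 2.30 TPM to between 4.74 and 6.87 TPM (1.06, limma adjusted p = 0.00225). VAMP2, the vesicle SNARE, rose from 24.25 and 27.12 TPM to between 44.83 and 56.19 TPM (0.88, limma adjusted p = 0.0012). Its partner on the cell membrane, STX1A, was at 0.64 (limma adjusted p = 0.00162), and NSF, which takes SNARE complexes apart, at 0.49 (limma adjusted p = 0.0122). RAB3A, a small GTPase of vesicles, was not called, at -0.23. The synaptic genes SYN1, SNAP25 and CPLX2 were at 0.03 TPM or less. These rises are relative to the rest of the transcriptome. With scaling to the ERCC spike-ins, the median of all genes moved to -0.11 at 72 h and -0.31 at 144 h. No gene of either list was then called by limma (0 at both times, and 1 of each list at 144 h at an unadjusted p under 0.05). SYT7 was then at 1.04 (adjusted p = 0.104) and CPLX1 at 0.74 (adjusted p = 0.14) at 144 h, and relative to the new median at 1.35 and 1.06.

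**Figure D4:**
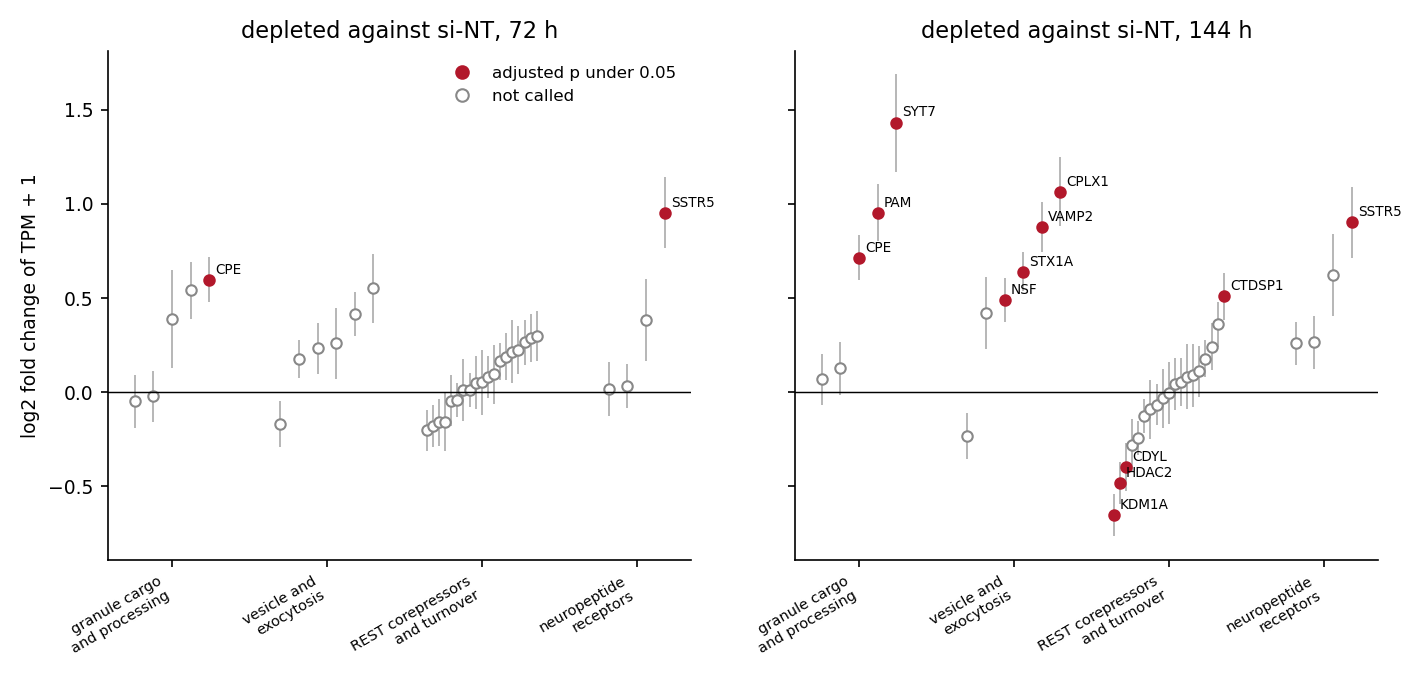
Log2 fold change of TPM + 1 in depleted against si-NT cells at 72 h (left) and 144 h (right) for the tested genes of 4 lists; error bars are standard errors, and filled red points have a limma adjusted p under 0.05. At 144 h the called granule and vesicle genes lie between 0.49 and 1.43; with ERCC scaling none of them was called.

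Among the partners of REST the share of genes called at 144 h was near that of all genes. At 72 h 1.68% of all genes were called. Of 20 genes for its corepressors and turnover, 19 were tested, 0 were called by limma at 72 h (2 at an unadjusted p under 0.05), and 1 rose and 3 fell at 144 h, 4 of 19 against 24.4% of all genes called, with medians of 0.05 and -0.0035. KDM1A, the lysine demethylase LSD1, fell from 76.18 and 81.15 TPM to between 42.88 and 53.73 TPM (-0.65, limma adjusted p = 0.00209). HDAC2, a histone deacetylase, fell from 194.86 and 217.79 TPM to between 131.91 and 160.65 TPM (-0.48, limma adjusted p = 0.00983). CDYL, which bridges REST to a histone methyltransferase, was at -0.40 (limma adjusted p = 0.0393). CTDSP1, a phosphatase that stabilises REST protein, was at 0.51 (limma adjusted p = 0.0134). Without replicate 2 of si-NT at 144 h, 1 of the 3 falls was called, and without either si-NT library of 144 h the rise was not. With ERCC scaling KDM1A alone was called (-1.05, adjusted p = 0.0473).

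The genes of the amine pathway around DDC were mostly low or not called. Of 21 genes, 10 were tested, 0 were called by limma at 72 h (1 at an unadjusted p under 0.05) and 2 rose at 144 h, with medians of -0.04 and 0.08. This is a share near the 13.6% of all genes called higher at 144 h. TH, TPH1 and TPH2, which make the substrates of DDC, were at 0.28 TPM or less, and DBH and PNMT, which act on dopamine and its products, at 0.08 TPM or less. The vesicular amine transporters SLC18A1 and SLC18A2 were at 0.04 TPM or less. The count of 2 at 144 h was 0 without either si-NT library of 144 h and 0 with ERCC scaling. MAOA, which degrades amines, was at 104.75 to 202.33 TPM over all libraries and was not called (-0.39 and 0.11).

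Among 13 receptors for neuropeptides, 12 were matched in the table and 4 tested. The medians of the tested receptors were 0.21 at 72 h and 0.44 at 144 h, against 0.06 and 0.03 over all genes. Of all genes, 1.13% and 13.6% were called higher at these times. This list too was chosen with earlier results of these data known, so its medians and calls are a description. SSTR5, a somatostatin receptor, rose at both time points. It was at 2.54 and 3.64 TPM in si-NT and at 5.39 to 9.26 TPM in depleted libraries at 72 h (0.95, limma adjusted p = 0.0333). At 144 h it was at 3.37 and 3.69 TPM and at 6.41 to 8.91 TPM (0.90, limma adjusted p = 0.00604). The call at 72 h was lost when only the 6 libraries of 72 h were fitted and in 6 of 12 fits that left out 1 library, each si-NT library, siRNA 2 replicate 1 and siRNA 3 replicate 2 of 72 h, and that at 144 h without replicate 1 of si-NT at 144 h. With ERCC scaling neither was called. SSTR2 was at 0.51 TPM or less, and the neurotensin receptors NTSR1 and NTSR2 at 0.09 TPM or less. Of the luminal markers, 0 of 7 were called by limma at 72 h (2 at an unadjusted p under 0.05) and 2 rose at 144 h, the luminal keratin KRT8 among them (0.56, limma adjusted p = 0.00109), with medians of -0.12 and 0.17. Of all genes, 13.6% were called higher at that time. Without either si-NT library of 144 h 1 of these was called, and with ERCC scaling 0.

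The genes whose log2 levels followed DDC most closely over the 12 libraries were PLEKHS1, VDR, VAV3, CRISP3 and LINC01354, with Pearson r from 0.973 to 0.975. All 5 were lower in depleted libraries, and r rests largely on the gap between si-NT and depleted libraries, which 122 genes with r of at least 0.9 shared. VAV3, an exchange factor for small GTPases, was at 10.72 to 25.46 TPM in si-NT and 1.11 to 2.84 TPM in depleted libraries. VDR, the vitamin D receptor, was at 7.31 to 10.07 TPM and 3.60 to 5.54 TPM. PLEKHS1 was at 1.44 to 3.20 TPM and 0.29 to 0.56 TPM. CRISP3, a secreted cysteine-rich protein, was at 0.89 to 1.72 TPM and 0.10 to 0.40 TPM, and the long non-coding RNA LINC01354 at 1.15 to 1.56 TPM and 0.10 to 0.41 TPM. PLEKHS1, CRISP3 and LINC01354 reached 1 TPM in si-NT libraries alone. Only genes that passed the filter were ranked, so of the other 9 genes ENO2, SYP and REST alone could appear. They were not among these 5.

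**Figure D5:**
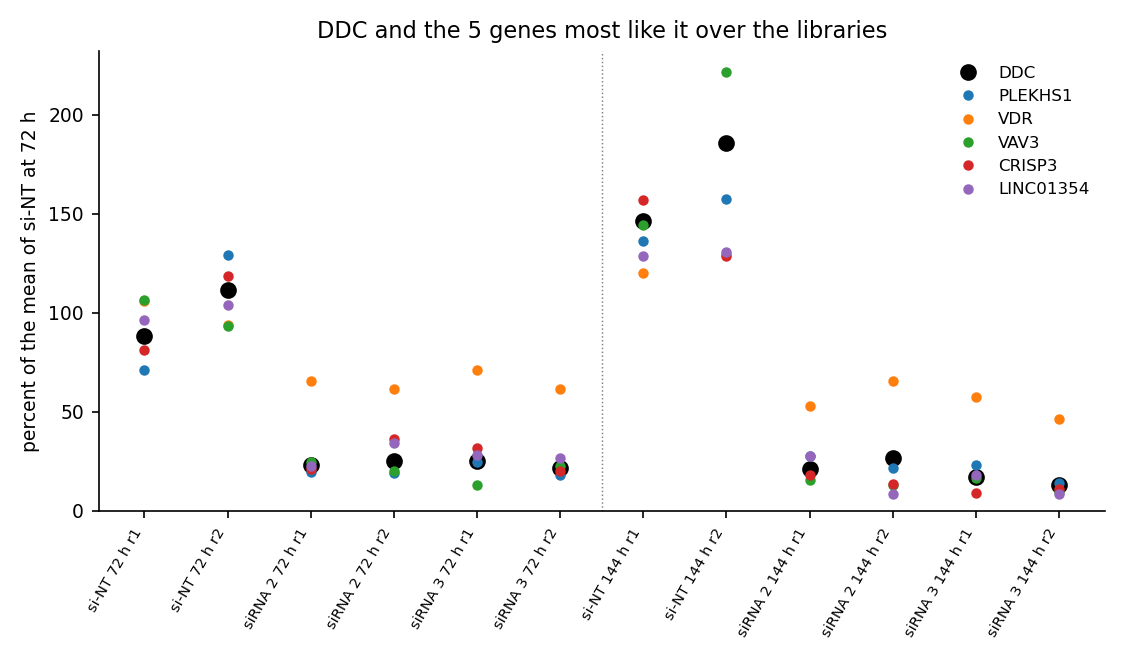
Level of DDC and of the 5 genes with the highest Pearson r to it, in each of the 12 libraries, as a percent of the gene's own mean in si-NT at 72 h; the dotted line separates 72 h from 144 h. All 6 genes are lower in the depleted libraries of both siRNAs, VDR by the least.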

How the data were processed

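Total RNA with ERCC spike-ins was made into stranded mRNA libraries. Per the submitters' processing notes and methods, reads were trimmed with Trim Galore 0.11.2, aligned to hg19 (GRCh37) with STAR 2.4.0j and counted with featureCounts. The authors deposited TPM on GENCODE genes. The tool that made the TPM is not given in the sources used here. The 63568 gene rows and 92 ERCC rows of the 12 libraries were used, and no pair of libraries held identical values (0 pairs).

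From these, log2(TPM + 1) was taken for the 16337 genes that reached 1 TPM in 2 or more libraries and fitted with limma 3.58.1 (R 4.3.3; eBayes with trend) in 4 groups, or 6 for siRNA against siRNA. A gene was called at a Benjamini-Hochberg adjusted p under 0.05 over all genes. The pseudocount understates changes of low genes. The fit was tested on simulated data. For 1 depleted library at 72 h the labels disagree on the siRNA, and its group is the same either way. Alternatives for the lists were chosen after seeing the data.

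The 10 genes and the lists were chosen with earlier results of these data known. All 10 are named, and of each list up to 4 called genes with the largest fold change at 144 h, genes listed low being named as background; some genes are not reported here, and the 5 genes most like DDC were taken by Pearson r. Positions come from GENCODE 44 lifted to GRCh37, promoters from RefSeq (GRCh38.p14), where 9 of the 10 genes were matched; CHGB was not. SSTR3 and PECAM1 were not matched in the table. Plots were made with Python 3.11.15 and matplotlib 3.10.9.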

Additional observations from a re-analysis of the deposited data

Results flagged for a closer look

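NTS, the neurotensin gene, was listed at 0 TPM in 3 of 4 BRG1 depleted libraries at each time point and above 0 in the fourth, at 0.08 TPM at 72 h and 0.04 TPM at 144 h. They are listed here because a gap criterion for outliers, which chance meets in about 1 in 20 groups of continuous values, marked them. With the other 3 values at 0 the criterion is met by any value above 0, so it says nothing of these libraries. Both libraries were replicate 2 of siRNA 2. The values are a few hundredths of a TPM, and the number of reads behind them is unknown.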

How the results depend on the processing

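Of 128 counts of called genes among SYP, REST, ENO2 and, under other filters, the other genes, 123 were the same as reported. At 72 h, 1 gene in place of 0 was called with si-NT of both time points combined (SYP, 0.52, adjusted p = 0.0239). The 1 gene reported as called at 144 h was SYP, which passed the filter of the reported fit through depleted libraries alone. At 144 h, 0 in place of 1 was called with a log2 fold change limit of 1.5, with a mean of at least 5 TPM (2 genes tested), with ERCC scaling, and without replicate 2 of si-NT at 144 h. With 1 library left out in turn the counts ranged from 0 to 0 at 72 h and from 0 to 1 at 144 h. The counts of 0 for the difference between time points, for si-NT over time and for the siRNAs stayed at 0 under each alternative run. Of 174 fold changes, 3 changed direction: ENO2 at 72 h to 0.0402 with combined si-NT and to 0.0076 without replicate 2 of si-NT at 72 h, and REST at 144 h to -0.0968 with ERCC scaling. With 1 library left out, ENO2 at 72 h ranged from -0.9688 to 0.0076. The DDC difference ranged from -2.38 to -1.85 for 72 h, and from -3.44 to -2.69 for 144 h.

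The replicate numbers were not stated to mark a shared batch, and the correlation of same-numbered deviations lay between -0.23 and 0.30, so they were not treated as pairs. With a replicate block, the counts were 0 at 72 h and 1 at 144 h, as without it, and SYP at 144 h was at 0.66 (adjusted p = 0.0124). Of the lists, the block left 0 in place of 1 granule gene higher at 72 h (CPE), 2 in place of 3 REST partners lower and 1 in place of 2 amine genes higher at 144 h. The unknown read depth limits what can be said of the genes under 1 TPM.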
